A study of Mus musculus with 4 samples.

Results

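The core spliceosome and heterogeneous nuclear ribonucleoprotein (hnRNP) genes described here are the genes whose mouse symbols begin with Snrp, Sf3a, Sf3b, U2af, Prpf or Hnrnp in the patterns used for these families, with a mean of at least 5 CPM over the 4 libraries (CPM, unique molecular identifiers or UMIs of a gene, scaled to a common library total). The pattern matched 58 symbols, and 55 of them passed that level, out of 9903 genes that passed it among 56941 listed features. The 55 genes comprise 12 genes of Sm and U1/U2 particle proteins, 11 of U2AF, SF3A and SF3B, 12 of PRPF proteins and 20 of hnRNPs. Droplet libraries of transcript 3′ ends were made from mouse bone marrow, with 1 library per group and therefore no replicate in any comparison. The groups were MLL-AF9 leukaemia cells labelled KO, MLL-AF9 leukaemia cells labelled WT, normal c-Kit+ cells labelled KO and normal c-Kit+ cells labelled WT. MLL-AF9 is a fusion oncogene that drives acute myeloid leukaemia, KO stands for an Rbm5 knockout and WT for wild type. The leukaemia cells were primary cells taken at a common endpoint of a first transplantation, and c-Kit is the stem cell factor receptor carried by immature blood cells. The labels give neither strain, sex, age, Rbm5 allele, deleter line nor a sort that separates leukaemia cells from cells of the recipient. Whether a library pooled animals is not given either.

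The spliceosome removes introns from pre-messenger RNA. Its small nuclear ribonucleoproteins (snRNPs) carry rings of Sm proteins around their RNA, the U1 particle marks the 5′ splice site, and U2AF and the SF3 complexes guide the U2 particle to the branch site and the 3′ splice site. PRPF proteins build and drive the later particles and the catalytic complex, while hnRNPs coat nascent transcripts and shift the choice of splice sites. RBM5 is itself a splicing regulator, and in studies of the human protein its OCRE domain binds the tails of SmN, SmB and SmB′, the products of SNRPN and SNRPB.

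Promoter windows of the 3 members with the lowest and the 3 with the highest KO over WT ratio in leukaemia are shown, since these genes carry the ends of the range described later. Each window runs from 250 bases before to 50 bases after a RefSeq start on GRCm38.p6 and is written in the direction of the gene. Capitals mark CACGTG (the E-box bound by MYC and its relatives), CCGGAAG (bound by ETS factors) and CCAAT (bound by NF-Y), each sought on both strands, so ATTGG is CCAAT on the other strand. Hnrnpr lies at chr4:136310692-136310991 on the plus strand, Snrpf at chr10:93589609-93589908 on the minus strand and Snrpg at chr6:86371290-86371589 on the plus strand.
Hnrnpr: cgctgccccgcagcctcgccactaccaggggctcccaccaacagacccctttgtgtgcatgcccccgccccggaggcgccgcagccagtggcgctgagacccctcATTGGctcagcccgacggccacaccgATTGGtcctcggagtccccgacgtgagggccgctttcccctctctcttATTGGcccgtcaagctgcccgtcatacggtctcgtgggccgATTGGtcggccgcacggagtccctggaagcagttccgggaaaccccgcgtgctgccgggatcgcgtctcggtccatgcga
Snrpf: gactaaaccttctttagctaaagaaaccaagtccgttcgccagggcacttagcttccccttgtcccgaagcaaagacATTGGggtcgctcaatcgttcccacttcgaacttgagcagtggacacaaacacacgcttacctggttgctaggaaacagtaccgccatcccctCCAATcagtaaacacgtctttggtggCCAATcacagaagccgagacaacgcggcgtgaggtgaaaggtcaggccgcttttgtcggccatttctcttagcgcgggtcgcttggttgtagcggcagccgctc
Snrpg: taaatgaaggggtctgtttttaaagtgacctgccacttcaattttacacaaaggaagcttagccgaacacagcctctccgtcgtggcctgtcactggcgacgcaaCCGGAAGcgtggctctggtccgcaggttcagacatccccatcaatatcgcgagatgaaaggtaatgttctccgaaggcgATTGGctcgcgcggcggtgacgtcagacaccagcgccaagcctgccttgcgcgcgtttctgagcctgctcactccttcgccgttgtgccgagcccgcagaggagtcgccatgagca
Hnrnph2 lies at chrX:134600929-134601228 on the plus strand, Hnrnpl at chr7:28810640-28810939 on the plus strand and Hnrnpdl at chr5:100039173-100039472 on the minus strand.
Hnrnph2: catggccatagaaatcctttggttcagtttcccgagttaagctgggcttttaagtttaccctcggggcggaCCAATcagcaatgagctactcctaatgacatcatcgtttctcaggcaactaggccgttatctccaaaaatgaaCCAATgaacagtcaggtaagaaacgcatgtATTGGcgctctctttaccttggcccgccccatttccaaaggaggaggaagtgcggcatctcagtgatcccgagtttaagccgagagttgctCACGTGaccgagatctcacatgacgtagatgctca
Hnrnpl: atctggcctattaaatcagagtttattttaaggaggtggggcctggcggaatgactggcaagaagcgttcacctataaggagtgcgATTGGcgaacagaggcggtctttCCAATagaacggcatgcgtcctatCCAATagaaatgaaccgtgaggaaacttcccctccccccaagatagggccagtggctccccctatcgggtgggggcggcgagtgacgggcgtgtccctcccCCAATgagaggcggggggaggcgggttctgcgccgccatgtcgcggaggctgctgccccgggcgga
Hnrnpdl: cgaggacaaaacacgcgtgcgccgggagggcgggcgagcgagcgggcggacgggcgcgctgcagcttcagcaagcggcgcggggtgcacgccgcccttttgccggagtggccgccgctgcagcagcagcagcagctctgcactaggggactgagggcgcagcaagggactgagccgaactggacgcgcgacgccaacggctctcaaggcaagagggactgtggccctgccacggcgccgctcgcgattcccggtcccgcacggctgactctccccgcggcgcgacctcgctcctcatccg
The Hnrnpr window holds 4 CCAAT motifs, Snrpf 3, Snrpg 1 beside 1 ETS motif, Hnrnph2 3 beside 1 E-box, Hnrnpl 4, and Hnrnpdl none of these. Of the 55 members, 45 matched the RefSeq table by symbol, with 59 windows. CCAAT was present in 31 member windows (52.5%), against 37.4% of all 32851 windows and 38.0% of 9938 windows of genes that passed 5 CPM. The ETS motif was present in 19 member windows (32.2%), against 8.86% of all windows and 19.5% of those of genes that passed 5 CPM. The E-box was present in 10 (16.9%), against 7.15% and 10.4%. A further motif sought, TGACGTCA (CRE, not in capitals above), was present in 2 (3.39%), against 1.79% and 3.10%. Its share thus lay near that of genes that passed 5 CPM. The median GC share was 60% in member windows and 52.7% in all windows, and its part in these shares was not tested. By gene, the E-box was found in 8 of 45 members (17.8%), against 8.09% of 27025 genes. These were 1 of 9 Sm and U1/U2 genes (Snrpa), 0 of 8 U2AF and SF3 genes and 2 of 10 PRPF genes (Prpf3 and Prpf39). The others were 5 of 18 hnRNP genes (Hnrnpa3, Hnrnpd, Hnrnpf, Hnrnph2 and Hnrnpm). The families are too small to compare with that share. All of these motifs are matches of letters, which describe the windows and say nothing of binding.

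After the cell filter the 4 libraries held 11778 to 13708 cells and 93004538 to 101255178 UMIs, with median UMIs per cell of 7420.5 in KO leukaemia and 5352 to 5946 in the others. Any pair of libraries shared 40 to 59 cell barcodes. Rbm5 was counted at 116 CPM in KO leukaemia against 160 CPM in WT leukaemia, and at 89.6 CPM in KO c-Kit+ cells against 75.5 CPM in WT c-Kit+ cells. The labels do not say which part of the gene was deleted, so tags near the 3′ end do not check them, and the groups are named as the labels give them. Kit itself was at 28.4 CPM in KO leukaemia, 61.3 CPM in WT leukaemia, 43.9 CPM in KO c-Kit+ and 45.8 CPM in WT c-Kit+ cells. By markers, most cells labelled c-Kit+ were maturing neutrophils: the immature neutrophil gate held 7076 of 13708 KO and 6804 of 12948 WT cells, and the stem or multipotent progenitor gate 148 KO and 167 WT cells. The KO leukaemia library stood apart from the others in immediate early transcripts, 8104 CPM for a list of 8 genes against 309 CPM in WT leukaemia, with 1891 CPM in KO and 2091 CPM in WT c-Kit+ cells. G2M markers summed to 925 CPM in KO and 1368 CPM in WT leukaemia, and to 2168 CPM in KO and 2048 CPM in WT c-Kit+ cells. The part of these differences in the member levels was not tested.

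The 55 members together gave 8115 CPM in KO leukaemia against 10488 CPM in WT leukaemia, and 10587 CPM in KO c-Kit+ against 10275 CPM in WT c-Kit+ cells. They made up 0.811% of all UMIs in KO leukaemia and 1.03% to 1.06% in the other libraries. Per cell this was a mean of 69.8 member UMIs in KO leukaemia, 74.0 in WT leukaemia, 78.1 in KO c-Kit+ and 74.4 in WT c-Kit+ cells. The median cell held 46 member UMIs in KO and in WT leukaemia, 36 in KO c-Kit+ and 32 in WT c-Kit+ cells, so KO leukaemia was lowest by CPM and by the mean cell but not by the median cell. Whole libraries are sums over cell types, in which fewer cells of a type and less RNA per cell cannot be told apart. All intervals are 95% intervals that cover counting error alone and not the variation between mice.

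**Figure D1:**
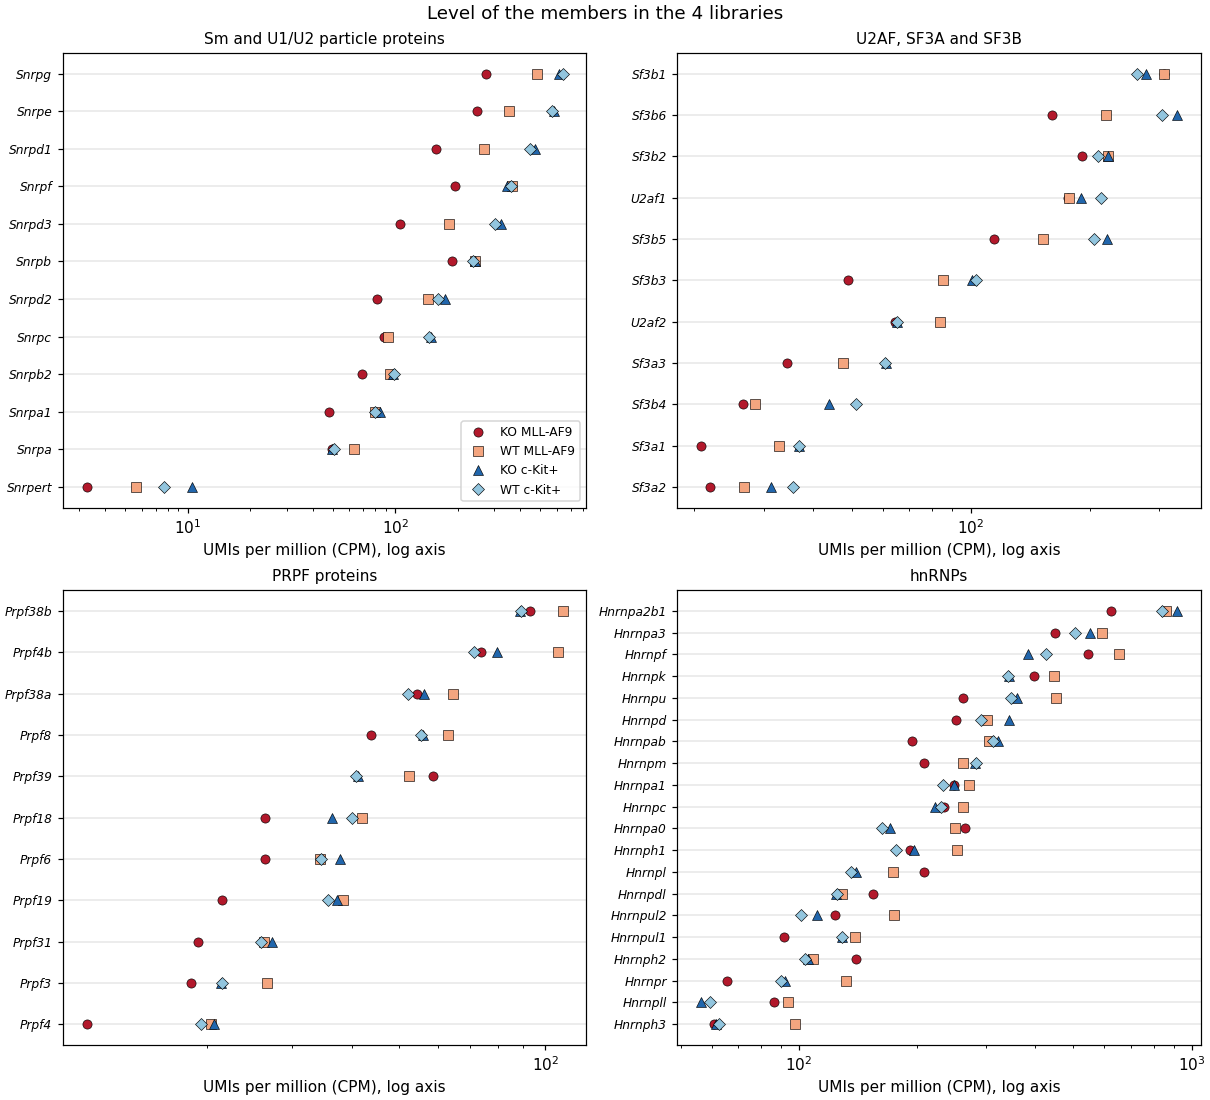
CPM of the members shown in each of the 4 libraries on a log axis, by family, with members ordered by mean CPM. KO leukaemia (circles) is the lowest symbol for nearly all Sm and U1/U2 genes, for example 193 CPM for Snrpf against 346 to 363 CPM in the other libraries, while Sf3b1 lies between 264 and 308 CPM in all of them.

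The other 3 symbols that matched the pattern stayed under the level. U2af1l4, a relative of U2af1, averaged 1.87 CPM and Prpf40b averaged 1.58 CPM. Snrpn, which codes for SmN and is known for its expression in neurons, gave 2 UMIs in KO leukaemia, 1 in WT leukaemia and 3 in each c-Kit+ library, too few to compare. Members with many counts in each family were followed across libraries. Snrpe was at 247 CPM in KO leukaemia, 355 CPM in WT leukaemia, 582 CPM in KO c-Kit+ and 566 CPM in WT c-Kit+ cells. Sf3b2 was at 191 CPM in KO leukaemia and at 210 to 222 CPM in the other libraries. Sf3b6, which contacts the branch site adenosine, was at 161, 220, 333 and 304 CPM in the same order. Both leukaemia libraries were thus below both c-Kit+ libraries for Snrpe and Sf3b6, whereas for Sf3b2 KO leukaemia alone was below the others. Among PRPF genes Prpf38b was at 93.2 CPM in KO leukaemia, 109 CPM in WT leukaemia, 88.8 CPM in KO c-Kit+ and 89.1 CPM in WT c-Kit+ cells. Among hnRNPs Hnrnpa3 was at 449 CPM in KO leukaemia, 590 CPM in WT leukaemia, 553 CPM in KO c-Kit+ and 505 CPM in WT c-Kit+ cells. The lowest member, Snrpert, averaged 6.77 CPM. It is annotated as a processed pseudogene on chromosome 2 and is related by name to Snrpe, so its reads may be shared with that gene and its values are uncertain.

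In leukaemia, 49 of 55 members were lower in KO than in WT cells (background 74.3% of all genes), and the median member log2 ratio was -0.42 (pseudocount of 1 CPM). The median of all 9903 genes was -0.38, so the member median lay close to that of all genes. Past 1.5-fold, 17 members were lower (background 34.7% of all genes) and 0 were higher (background 9.56%). Measured from the all-gene median, Hnrnpr alone was lower by 1.5-fold (background 13.7%) and Hnrnph2, Hnrnpl and Hnrnpdl were higher (background 17.6%). With median-ratio size factors in place of CPM the all-gene median moved to -0.03, the member median to -0.05, and the number lower past 1.5-fold to 1.

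The Sm and U1/U2 genes had the lowest family median, -0.68, with 12 of 12 lower (background 74.3%) and 7 lower past 1.5-fold (background 34.7%). Snrpf, a protein of the Sm ring, was at 193 CPM in KO against 363 CPM in WT leukaemia, a ratio of 0.532 (0.523 to 0.541), where KO and WT c-Kit+ cells had 346 and 360 CPM. Snrpg, of the same ring, was at 274 CPM in KO against 484 CPM in WT leukaemia, and at 617 and 639 CPM in KO and WT c-Kit+ cells. Snrpd2 was at 81.7 CPM in KO against 144 CPM in WT leukaemia, and at 173 and 160 CPM in KO and WT c-Kit+ cells. For these 3 ring proteins KO leukaemia was the lowest of the 4 libraries. Snrpd3 was at 105 CPM in KO against 181 CPM in WT leukaemia and Snrpd1 at 158 against 266 CPM, ratios of 0.580 (0.566 to 0.595) and 0.593 (0.581 to 0.605). Snrpb, whose product SmB carries the tail bound by RBM5, was closer to level, at 187 CPM in KO against 242 CPM in WT leukaemia, with 243 and 236 CPM in KO and WT c-Kit+ cells. Its log2 ratio of -0.37 lay at the all-gene median. Snrpc, a U1 particle protein that helps U1 hold the 5′ splice site, was the highest of the family, at 88.0 CPM in KO against 92.4 CPM in WT leukaemia.

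The U2AF and SF3 genes, which define the branch site and the 3′ splice site, spanned a wide range, with a median of -0.38. In this family 10 of 11 were lower (background 74.3%) and 2 lower past 1.5-fold (background 34.7%). Sf3b1, the subunit that holds the branch site, was at 308 CPM in both leukaemia libraries (KO over WT ratio between 0.986 and 1.02), against 277 and 264 CPM in KO and WT c-Kit+ cells. U2af1, which reads the AG of the 3′ splice site, was at 177 CPM in KO and in WT leukaemia, against 190 and 214 CPM in KO and WT c-Kit+ cells. On the CPM scale these genes were level in leukaemia, and relative to the all-gene median they were higher in KO by 0.38 and 0.37 (log2). U2af2, its partner on the polypyrimidine tract, was at 64.3 CPM in KO against 83.9 CPM in WT leukaemia, and at 65.3 CPM in KO and 65 CPM in WT c-Kit+ cells. Sf3b3, a large SF3B scaffold subunit, was the lowest, at 49.0 CPM in KO against 85.3 CPM in WT leukaemia, and Sf3a1 followed at 20.8 against 32.7 CPM. Subunits of 1 complex thus differed in their ratios by more than their counting intervals.

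The PRPF genes had a median of -0.47, with 11 of 12 lower (background 74.3%) and 3 lower past 1.5-fold (background 34.7%). Prpf19, the ubiquitin ligase of the complex that activates the spliceosome, was at 21.5 CPM in KO against 38.3 CPM in WT leukaemia, a ratio of 0.562 (0.533 to 0.593). Prpf4, a U4/U6 particle protein, was at 11.3 against 20.4 CPM, and Prpf18, which acts in the last catalytic step, at 26.5 against 41.8 CPM. Prpf8, the U5 protein at the catalytic centre, was at 43.8 CPM in KO against 63.0 CPM in WT leukaemia, and at 56.0 and 55.4 CPM in KO and WT c-Kit+ cells. Prpf39, a U1-associated factor known best from yeast, was the exception at 58.6 CPM in KO against 52.2 CPM in WT leukaemia.

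The hnRNPs held both ends of the range and had the highest family median, -0.29. Of these genes 16 of 20 were lower (background 74.3%) and 5 lower past 1.5-fold (background 34.7%). Hnrnpr, an RNA-binding protein related to Syncrip, was the lowest member of all, at 65.4 CPM in KO against 132 CPM in WT leukaemia, a ratio of 0.498 (0.483 to 0.513). In KO and WT c-Kit+ cells it was at 92.3 and 89.9 CPM, so the leukaemia libraries lay on either side of the normal ones. Hnrnph2, which binds G-rich RNA, was the highest, at 139 CPM in KO against 109 CPM in WT leukaemia, a ratio of 1.28, with 106 and 103 CPM in KO and WT c-Kit+ cells. Hnrnpl, which binds CA repeats, was at 208 CPM in KO against 173 CPM in WT leukaemia, and Hnrnpdl, a relative of Hnrnpd, at 154 against 129 CPM. KO leukaemia was the highest of the 4 libraries for these 3 genes. Among the best known hnRNPs, Hnrnpa1 was at 249 CPM in KO against 271 CPM in WT leukaemia, Hnrnpk at 397 against 446 CPM and Hnrnpa2b1 at 624 against 858 CPM. Hnrnpa1 has processed pseudogenes and Hnrnph1, Hnrnph2 and Hnrnpf are close paralogs, so reads shared between copies may shift their levels.

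**Figure D2:**
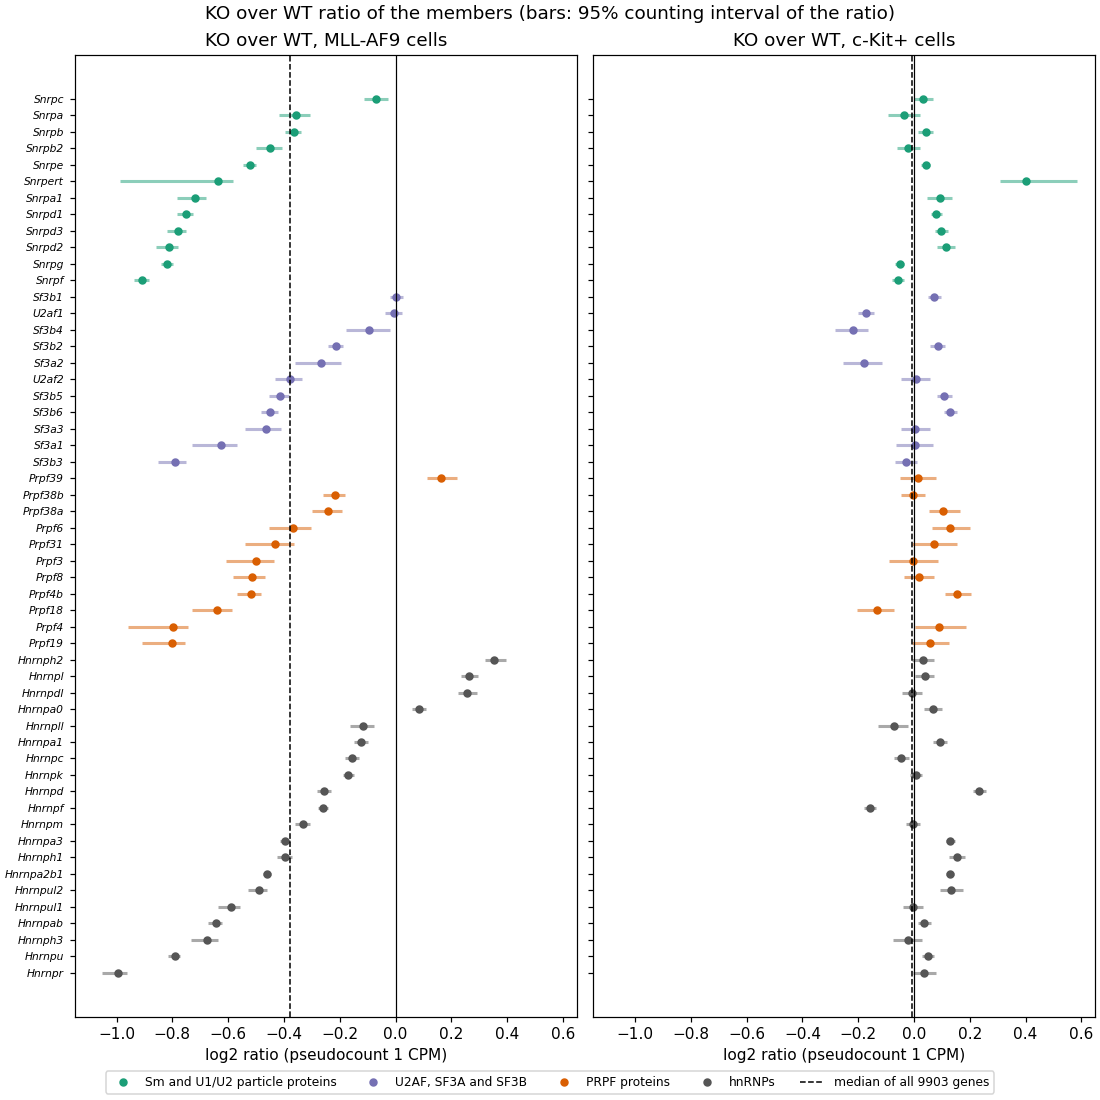
Log2 ratio of KO over WT for the members shown in MLL-AF9 cells (left) and c-Kit+ cells (right), coloured by family, with the 95% counting interval of the plain ratio as a bar, 0 as a solid line and the median of all genes as a dashed line. In MLL-AF9 cells the members run from Hnrnpr at the low end to Hnrnph2 at 0.35 around a dashed line at -0.38, and in c-Kit+ cells from -0.22 to 0.40 around -0.01.

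Other genes of the pathway, taken from lists, showed how far the members were typical in KO over WT leukaemia. The background for the counts below was 74.3% of all genes lower and 25.7% higher. Past 1.5-fold it was 34.7% lower and 9.56% higher. Of 63 other spliceosome proteins, 53 were lower and 10 higher, with a median of -0.38 equal to that of all genes, and 19 lower and 1 higher past 1.5-fold. The extremes were Lsm7, of the ring that binds U6 RNA, at 30.4 CPM in KO against 69.6 CPM in WT leukaemia, and Smndc1, a splicing factor with a Tudor domain related to that of SMN, at 116 against 62.8 CPM. The 12 SR proteins at 5 CPM or more, which bind exonic enhancers, split evenly, 6 lower and 6 higher, with a median of 0.02. Srsf5 was at 685 CPM in KO against 234 CPM in WT leukaemia and Tra2a, an SR-like protein, at 388 against 190 CPM, while Srsf1 was at 60.1 against 121 CPM. The 11 genes of snRNP assembly at that level, which load Sm rings onto RNA, had a median of -0.59, with 10 lower and 6 lower past 1.5-fold, among them Gemin6 at 5.76 CPM in KO against 15.7 CPM in WT leukaemia and Gemin5 at 4.70 against 11.2 CPM. The 18 other hnRNP-like proteins had a median of -0.28, from Taf15 at 110 CPM in KO against 194 CPM in WT to Cirbp, the cold-inducible RNA-binding protein, at 86.7 against 52.4 CPM.

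Within gated cell types the member level of the KO leukaemia library was lower as well, and again by about as much as that of all genes. A gate assigned each cell to the marker list of which it expressed the largest share, with at least 3 distinct markers. The KO over WT ratio of the member sums was 0.838 in neutrophil progenitors, 0.790 in immature neutrophils, 0.899 in late neutrophils and 0.885 in monocytes. It was 0.712 (0.694 to 0.731) in erythroid cells, on 185 KO and 71 WT cells. In T or NK cells, 72 KO and 94 WT, it was 0.913 (0.874 to 0.954). The labels do not tell whether erythroid and T or NK cells came from the leukaemia or from the recipient. Members lower past 1.5-fold numbered 7 in progenitors (background 23.3%), 15 in immature neutrophils (32.9%) and 19 in late neutrophils (39.9%). The member medians in these gates were -0.26, -0.39 and -0.43, beside all-gene medians of -0.24, -0.35 and -0.42. Each gate, and the ungated cells as a group, was also given the same weight in KO and WT, its mean share of cells in both. That gave 0.823. In dividing cells, defined by at least 3 of 8 G2M markers, the ratio was 0.845, and in the other cells 0.790, with dividing cells making up 20.4% of KO and 28.0% of WT leukaemia cells. Hnrnpr was the lowest member in the progenitor, immature neutrophil and monocyte gates and second to Snrpf in late neutrophils. Immediate early transcripts were high in every gate of KO leukaemia, from 1285 CPM in erythroid cells to 16256 CPM in monocytes, against 88.1 to 790 CPM in the gates of WT leukaemia, and their part in these ratios was not tested.

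In the normal c-Kit+ cells the KO and WT libraries differed little in these genes over all cells, and more in some gates. Over all cells the median member log2 ratio was 0.04 (all genes -0.01), 18 members were lower (background 52.2%) and 37 higher (background 47.8%), and 0 passed 1.5-fold in either direction (background 0.192% lower and 0.283% higher). Relative to the all-gene median 0 passed as well (background 0.182% lower). Sf3b4, an SF3B subunit that contacts RNA near the branch site, was the lowest, at 43.9 CPM in KO against 51.3 CPM in WT c-Kit+ cells, a ratio of 0.856 (0.821 to 0.892). Sf3a2 was at 31.3 against 35.5 CPM and U2af1 at 190 against 214 CPM, a ratio of 0.887 (0.870 to 0.905). Hnrnpf was at 383 CPM in KO against 427 CPM in WT c-Kit+ cells and Prpf18 at 36.3 against 39.9 CPM. Sf3b6 was higher, at 333 CPM in KO against 304 CPM in WT, and 7 of 11 U2AF and SF3 genes were higher. At the other end stood Snrpert, the pseudogene, at 10.5 against 7.71 CPM, and Hnrnpd, known for binding AU-rich RNA, at 343 CPM in KO against 292 CPM in WT c-Kit+ cells, a ratio of 1.18 (1.16 to 1.20). Prpf4b, a kinase of the spliceosome, was at 79.4 against 71.2 CPM, and Hnrnph1 at 196 against 176 CPM. By gate, the KO over WT ratio of the member sums was 1.02 in neutrophil progenitors, 1.03 in immature neutrophils and 0.914 (0.906 to 0.921) in erythroid cells. It was 0.952 in monocytes, 0.956 in basophil or mast, 1.03 in B and 1.01 in T or NK cells. In stem or multipotent progenitors it was 1.02. The values farthest from 1 were 1.27 (1.21 to 1.34) in late neutrophils and 0.879 (0.829 to 0.933) in plasmacytoid dendritic cells. The latter gates held 53 KO and 54 WT cells. In late neutrophils 19 members were higher past 1.5-fold (background 27.3%) and 2 lower (background 11.6%), with a member median of 0.29 beside 0.12 for all genes. Those gates held 359 KO and 408 WT cells. Without their dividing cells, 354 KO and 407 WT cells gave member sums of 3624 and 3244 CPM, where all cells of the gates gave 4129 and 3244 CPM. Without those few cells the KO sum thus lay closer to the WT sum and was still above it. The all-gene median was not taken without those cells, and the source of the difference was not tested. Over all cells of the late gates Snrpf was at 58.7 CPM in KO against 20.1 CPM in WT cells, on 49 and 19 UMIs. The ratio was 2.91 (1.68 to 5.24). It was not computed without the dividing cells, and the spread of these UMIs over cells was not examined. Whether such ratios exceed the variation between mice was not testable with 1 library each.

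Set against the KO effect in c-Kit+ cells, the KO effect in leukaemia was lower for 48 of 55 members (background 73.5%), by a median of -0.50 on the log2 scale, where all genes had a median of -0.39. Past 1.5-fold, 19 members were lower (background 35.6%) and 0 higher (background 10.4%). Relative to the all-gene median, 2 were lower (background 13.9%), Snrpert and Hnrnpr, and 3 were higher (background 18.8%), Hnrnph2, Hnrnpdl and Hnrnpl. The Sm and U1/U2 genes again had the lowest family median, -0.79.

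WT leukaemia and WT c-Kit+ cells were compared to set the members of leukaemia cells against those of normal cells of the same genotype label. These values share the WT leukaemia library with the KO comparison above. The families parted: the Sm and U1/U2 genes and the U2AF and SF3 genes each had a median log2 ratio of -0.27 for MLL-AF9 over c-Kit+, the PRPF genes one of 0.14 and the hnRNPs one of 0.29, beside 0.27 for all genes. In all, 35 members were higher (background 65.9%) and 20 lower. Past 1.5-fold, 5 members were higher (background 32.3%), all of them hnRNPs, and 5 were lower (background 11.4%), of which 4 were Sm and U1/U2 genes. Measured from the all-gene median, 11 were lower (background 19.4%) and 0 higher (background 20.4%).

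Sf3b4 was the lowest of all in that comparison, at 28.5 CPM in WT leukaemia against 51.3 CPM in WT c-Kit+ cells, a ratio of 0.555 (0.529 to 0.582). The Sm proteins Snrpd1, Snrpd3 and Snrpe followed, at 266, 181 and 355 CPM in WT leukaemia against 445, 303 and 566 CPM in WT c-Kit+ cells. Snrpc was at 92.4 against 145 CPM. In contrast Snrpf, of the same Sm ring as Snrpe, was at 363 CPM in WT leukaemia against 360 CPM in WT c-Kit+ cells; proteins of the ring thus differed in their ratios by more than counting error. Hnrnpul2 was the highest, at 174 CPM in WT leukaemia against 101 CPM in WT c-Kit+ cells, a ratio of 1.73 (1.68 to 1.77). Hnrnpll, which regulates splicing of the CD45 transcript in lymphocytes, was at 93.6 against 59.4 CPM and Hnrnpa0 at 250 against 163 CPM. Hnrnpf was at 652 CPM in WT leukaemia against 427 CPM in WT c-Kit+ cells, and its relative Hnrnph3 at 97.6 against 62.6 CPM. In the KO libraries the same contrast gave family medians of -0.95 for Sm and U1/U2 genes (12 of 12 lower), -0.70 for U2AF and SF3 genes, -0.27 for PRPF genes and -0.01 for hnRNPs, beside -0.04 for all genes. There 18 members were lower past 1.5-fold (background 25%) and 2 higher (background 22.9%), Hnrnpa0 and Hnrnpll.

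Within gates that contrast depended on the stage of the cells. The ratio of the member sums for WT leukaemia over WT c-Kit+ cells was 0.877 in neutrophil progenitors, 1.29 in immature neutrophils and 1.72 in late neutrophils. The member medians (log2) were 0.03, 0.36 and 0.81, beside all-gene medians of 0.34, 0.45 and 0.68. In progenitors 26 members were lower (background 33.4%) and 29 higher, so the ratio of the sums there does not describe the typical member. In progenitors the Sm and U1/U2 genes summed to 3174 CPM in WT leukaemia against 5236 CPM in WT c-Kit+ cells, and 11 of 12 were lower (background 33.4% of all genes), with a median of -0.64 beside 0.34 for all genes. In late neutrophils the same family summed to 695 CPM in WT leukaemia against 455 CPM in WT c-Kit+ cells, and 10 of 12 were higher (background 77.9%), with a median of 0.78 beside 0.68 for all genes, so there the family lay near all genes. Among the cells not called dividing the ratio of all member sums was 1.40, and among dividing cells 1.08. Dividing cells made up 45.4% of the progenitor gate in WT leukaemia and 80.6% in WT c-Kit+ cells, and 28.4% and 41.2% of the immature neutrophil gates.

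Across cell types the members were lowest in late neutrophils in every library. In WT c-Kit+ cells the order of the member sums was erythroid (15752 CPM), neutrophil progenitor (14489), B (13011), stem or multipotent progenitor (13002), monocyte (11902), plasmacytoid dendritic (10662), basophil or mast (9139), T or NK (8820), immature neutrophil (7428) and late neutrophil (3244). The counting intervals of B cells and stem or multipotent progenitors overlapped, as did those of basophil or mast and T or NK cells, so these neighbours did not differ beyond counting error. KO c-Kit+ cells had much the same order, with neutrophil progenitors (14841) above erythroid cells (14390). In WT leukaemia the B cell gate was highest (14315) and in KO leukaemia the neutrophil progenitor gate (10647), where fewer than 50 B cells were found. Late neutrophils were the lowest gate for 43 members in KO leukaemia (background 36.3% of all genes), 44 in WT leukaemia (34.6%), 44 in KO c-Kit+ (40.7%) and 51 in WT c-Kit+ cells (47.7%). A gated cell type is named from its markers alone, and 3 gates had 0 of their own markers among their 10 leading genes, the late neutrophil gate of WT c-Kit+ cells and the monocyte gates of KO leukaemia and KO c-Kit+ cells.

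**Figure D3:**
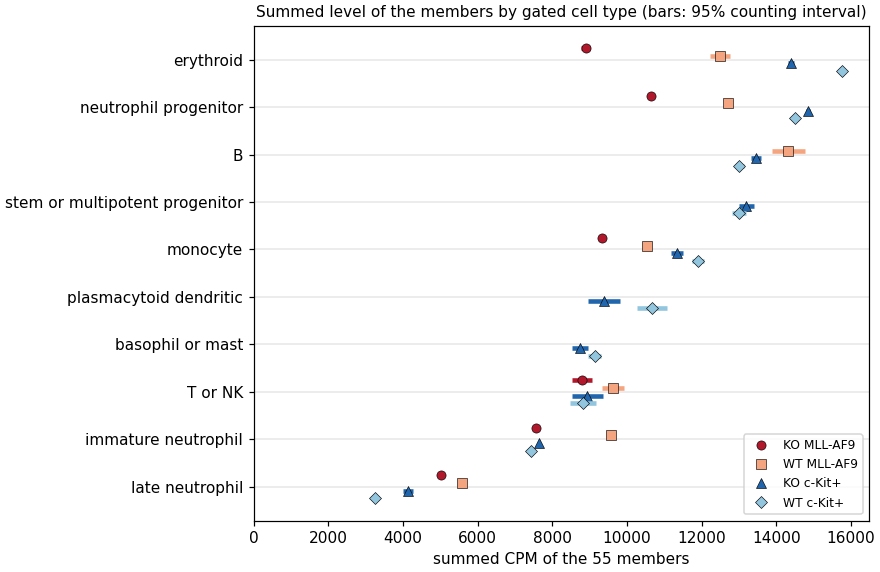
Summed CPM of the 55 members in each gated cell type with at least 50 cells, with a symbol per library and the 95% counting interval as a bar. Late neutrophils are the lowest gate of every library, from 3244 to 5583 CPM, and erythroid cells, neutrophil progenitors and B cells are the highest of the c-Kit+ libraries.

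The member sum was lower at each later neutrophil stage in all 4 libraries, and the Sm and U1/U2 genes had the lowest late over progenitor medians of the families. From progenitor to immature to late neutrophils the member sum was 10647, 7551 and 5018 CPM in KO leukaemia, 12709, 9559 and 5583 CPM in WT leukaemia, 14841, 7646 and 4129 CPM in KO c-Kit+ and 14489, 7428 and 3244 CPM in WT c-Kit+ cells. The late over progenitor ratio was 0.471 in KO leukaemia, 0.439 in WT leukaemia, 0.278 in KO c-Kit+ and 0.224 in WT c-Kit+ cells, lower in each c-Kit+ library than in either leukaemia library. Members lower past 1.5-fold in late neutrophils numbered 43 (background 53.6%), 43 (background 50.1%), 46 (background 55.6%) and 49 (background 57.4%) in the same order of libraries. Relative to the all-gene median they numbered 26 (background 33.7%), 26 (33.4%), 34 (36.9%) and 36 (38.6%).

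The Sm and U1/U2 genes were lower past 1.5-fold in late neutrophils in 12 of 12 cases in each library, with family medians of -2.69, -2.12, -2.90 and -3.51 in KO leukaemia, WT leukaemia, KO c-Kit+ and WT c-Kit+ cells, beside all-gene medians of -0.71, -0.59, -0.83 and -1.0. With Snrpert, which had 0 UMIs in the KO c-Kit+ late gate, set at a floor of 3 counts in that gate, the KO c-Kit+ median was -2.82. Snrpf was the steepest in WT c-Kit+ cells, at 20.1 CPM in late neutrophils against 717 CPM in progenitors, a ratio of 0.0281 (0.0169 to 0.0439). In WT leukaemia it was at 63.4 CPM in late neutrophils against 534 CPM in progenitors. Snrpd1 was at 36.1 CPM against 831 CPM in WT c-Kit+ cells and at 42.2 CPM against 376 CPM in WT leukaemia, and Snrpa1, a U2 particle protein, at 5.30 against 137 CPM in WT c-Kit+ cells. Snrpb was at 38.2 CPM in late neutrophils against 338 CPM in progenitors of WT c-Kit+ cells. The late gates behind these values were small, 359 to 763 cells, and Snrpa1 rested on 5 UMIs in that of WT c-Kit+ cells.

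A few members were not lower, or only slightly lower, in late neutrophils than in progenitors. Sf3b1 was at 213 CPM in late neutrophils against 248 CPM in progenitors of WT c-Kit+ cells, a ratio of 0.860 (0.742 to 0.990), and at 317 against 309 CPM in KO leukaemia, a ratio of 1.02 (0.957 to 1.10). Within the same complex Sf3b3 was at 12.7 against 136 CPM in WT c-Kit+ cells. Hnrnph2 was at 120 CPM in late neutrophils against 103 CPM in progenitors of WT c-Kit+ cells. In KO leukaemia it was at 165 against 125 CPM, a ratio of 1.32 (1.20 to 1.45). Hnrnpll was the highest member in KO leukaemia, with a late over progenitor log2 ratio of 0.62. Prpf18 was at 30.8 against 27.6 CPM in WT c-Kit+ cells, a ratio of 1.12 (0.739 to 1.62) and so level within counting error. It was at 60.0 against 40.5 CPM in WT leukaemia, a ratio of 1.48 (1.23 to 1.77). In KO c-Kit+ cells it was at 47.9 against 23.9 CPM, a ratio of 2.01 (1.42 to 2.77). Beyond counting error Prpf18 was thus higher in late neutrophils of WT leukaemia and KO c-Kit+ cells. Hnrnpc, which coats uridine-rich stretches of pre-messenger RNA, was at 172 against 212 CPM in WT c-Kit+ cells, whereas Hnrnpa1 was at 29.7 against 355 CPM. The hnRNP family therefore contained members with low and with level ratios, with a median of -1.69 in WT c-Kit+ cells, beside -2.61 for U2AF and SF3 genes and -1.43 for PRPF genes.

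**Figure D4:**
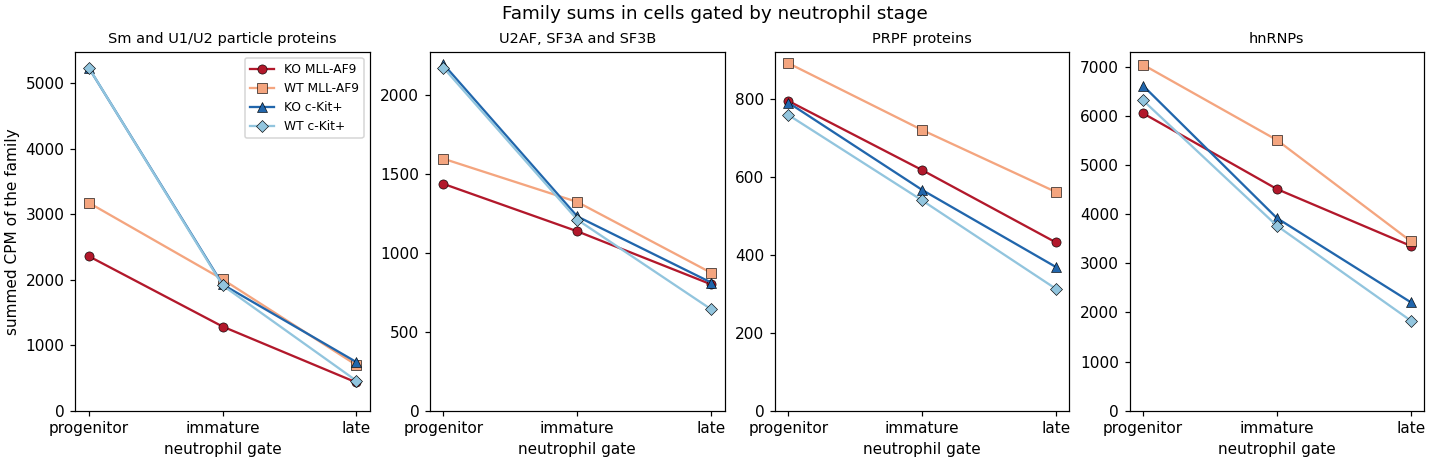
Summed CPM of each family in cells gated as neutrophil progenitors, immature neutrophils and late neutrophils, 1 line per library, with vertical axes from 0 that differ between panels. The Sm and U1/U2 sum of WT c-Kit+ cells runs from 5236 CPM in progenitors to 455 CPM in late neutrophils, and that of KO leukaemia from 2358 to 429 CPM.

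Dividing cells held more of the members than other cells. The member sum was 11047 CPM in dividing against 6691 CPM in other cells of KO leukaemia, 13079 against 8468 CPM in WT leukaemia, 12154 against 6067 CPM in KO c-Kit+ and 12132 against 6056 CPM in WT c-Kit+ cells. The KO and WT c-Kit+ sums thus lay close together in either state. Members higher past 1.5-fold in dividing cells numbered 34 in KO leukaemia (background 24.6%), 29 in WT leukaemia (16.2%), 41 in KO c-Kit+ (31.5%) and 43 in WT c-Kit+ cells (32.6%), and 0 were lower (background 12.3%, 13.4%, 22.5% and 21.2% in the same order). Relative to the all-gene median the numbers higher were 29 (18.3%), 20 (13.5%), 35 (26.3%) and 35 (25.7%). Snrpd1 and Hnrnpab, also known as CArG-binding factor A, were the highest in each library. Snrpd1 was at 571 CPM in dividing against 158 CPM in other WT c-Kit+ cells, a ratio of 3.62 (3.51 to 3.74), and at 310 against 83.6 CPM in KO leukaemia, a ratio of 3.71 (3.59 to 3.84). Prpf39 was the lowest in each library, and Hnrnph2 was at 103 CPM in dividing against 104 CPM in other WT c-Kit+ cells. Dividing cells were deeper, with median UMIs per cell of 9696 against 3408 in WT c-Kit+ cells. With each cell thinned to 2000 UMIs, the number higher past 1.5-fold in WT c-Kit+ cells was 26. Dividing cells were called again on the thinned counts, which gave 3692 dividing and 7824 other cells, against 5709 and 7239 before. The groups thus changed along with the depth, and the share of all genes was not computed for thinned cells.

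**Figure D5:**
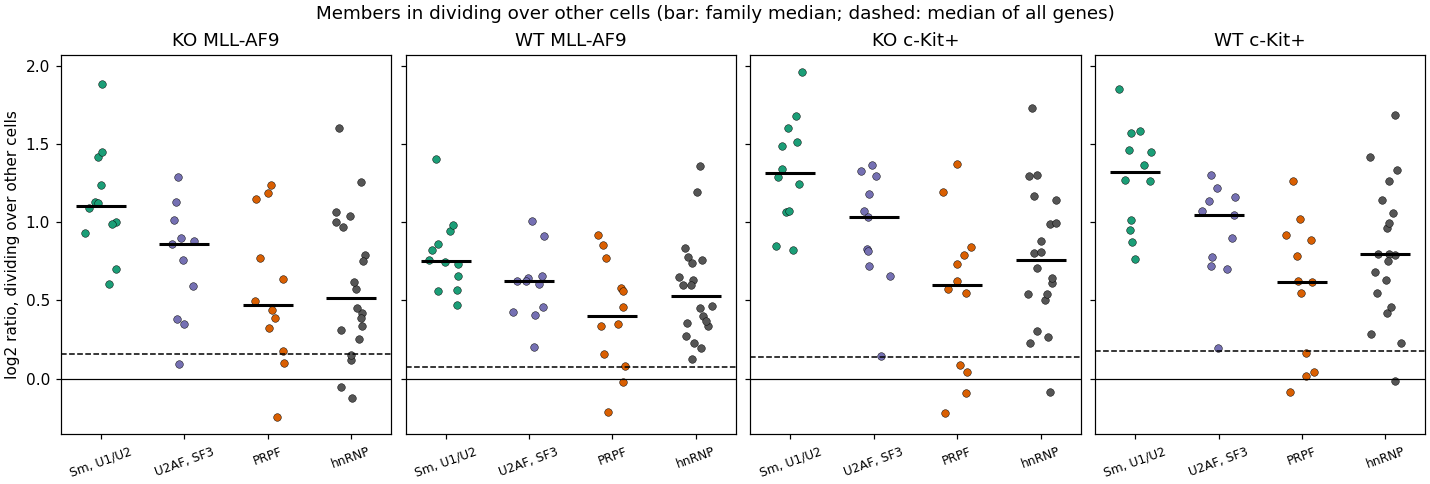
Log2 ratio of dividing over other cells for each member, by family, in each library, with a bar at the family median and a dashed line at the median of all genes. The Sm and U1/U2 medians, 1.11, 0.75, 1.31 and 1.32 in KO MLL-AF9, WT MLL-AF9, KO c-Kit+ and WT c-Kit+ cells, are the highest of the families in each library.

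Since dividing cells were frequent among progenitors and rare among late neutrophils, stage and division were also taken apart by the G2M threshold, a comparison chosen after these values had been seen. Among cells under the G2M threshold, the late over progenitor ratio of the member sums was 0.535 in KO leukaemia, 0.487 in WT leukaemia, 0.272 in KO c-Kit+ and 0.230 in WT c-Kit+ cells, close to the ratios over all cells, and the Sm and U1/U2 medians were -2.44, -2.10, -3.04 and -3.51. Members lower past 1.5-fold numbered 41 (background 52.9%), 40 (50%), 49 (61.1%) and 49 (59.7%). Within the immature neutrophil gate, dividing over other cells gave 1.66 in KO leukaemia, 1.58 in WT leukaemia, 1.97 in KO c-Kit+ and 2.20 in WT c-Kit+ cells, with 33 (background 23.2%), 28 (18.5%), 43 (31.3%) and 45 (37.4%) members higher past 1.5-fold. Within the progenitor gate the same ratio was 1.30 in KO leukaemia, 1.30 in WT leukaemia, 1.12 in KO c-Kit+ and 1.03 (1.02 to 1.04) in WT c-Kit+ cells, with 10 (background 9.46%), 5 (6.74%), 1 (7.42%) and 0 (5.32%) members higher. Cells under the threshold include cells in S phase and shallow cells. In WT c-Kit+ progenitors, S phase markers summed to 1045 CPM in dividing cells and 1279 CPM in the others, with median UMIs per cell of 10580 and 7786. In WT c-Kit+ immature neutrophils they summed to 743 CPM in dividing cells and 163 CPM in the others, with 8693 and 3820 UMIs per cell. The member sums were 14550 CPM in dividing and 14111 CPM in other progenitors, the reverse of the order of the S phase markers there. In immature neutrophils they were 9317 CPM in dividing and 4233 CPM in other cells, the same order as the S phase markers. A link between the member sums and S phase was not tested. Stage and the cell cycle were therefore not fully separated by this threshold.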

How the data were processed

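The authors deposited raw counts, UMIs per gene and cell barcode, for 4 libraries of mouse bone marrow cells. Cell Ranger 7.1.0 and the build mm10 are named in the submitters' processing notes; the annotation and the handling of intronic reads are not given in the sources used here. Reads of near-identical copies may therefore be split in an unknown way. Cells with at least 500 genes, 1000 UMIs and at most 10% mitochondrial UMIs were kept, doublets included (Scrublet called 3.09% to 4.46% of cells). UMIs were summed over the cells of a library or gate and divided by their total (CPM). Log2 ratios used a pseudocount of 1 CPM, a call was 1.5-fold, CPM have exact Poisson and ratios exact conditional binomial intervals at 95%. With 1 library per group there is no test and no p-value. Background shares are over the 9903 genes that averaged at least 5 CPM. Gates needed 3 distinct markers of a list, 50 cells and no tie; tied cells (1018 to 1798 per library) stayed ungated. Genes named are the 3 highest per family by mean CPM, the 5 highest and 5 lowest ratios of each comparison, and a set named throughout (Snrpb, Snrpn, Sf3b1, U2af1, U2af2, Prpf8, Hnrnpa1, Hnrnpa2b1 and Hnrnpk), with Rbm5, which came to 39 of the 55 members and Snrpn; 1 of them is counted in every total but not reported by name or plotted by name here. Others (Sf3b3, Sf3a1, Snrpa1, Hnrnpab and Hnrnpc) were chosen after their values were seen, as were the stage values of single members. Members and gene lists were chosen with earlier results of these data known. Gene positions and IDs follow GENCODE M21 (GRCm38), in which all 55 members were found. Alternatives were 2 other cell filters, doublets removed, 2 scalings, 2 pseudocounts, 2 level filters, equal weight per cell, cells thinned to 2000 UMIs, matched cell types and a looser fold; 2 added ones (stage in cells under the G2M threshold, division within immature neutrophils) were chosen after seeing the data; the procedure was tested on simulated data. Python 3.11.15, numpy 2.4.6, scipy 1.17.1, pandas 2.3.3, scanpy 1.11.5 and matplotlib 3.10.9 were used.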

Additional observations from a re-analysis of the deposited data

Results flagged for a closer look

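For 11 members the KO over WT ratio was below 1 in leukaemia and above 1 in c-Kit+ cells, with both counting intervals clear of 1 and the log2 ratios at least 1.5-fold apart. Of all 9903 genes, 15.4% met the same conditions in this or the reverse arrangement. With 1 library per group the difference was not tested. On the log2 scale the KO effect in leukaemia minus that in c-Kit+ cells was -0.81 for Snrpa1, -0.83 for Snrpd1, -0.92 for Snrpd2, -0.88 for Snrpd3 and -1.04 for Snrpert. It was -0.89 for Prpf4 and -0.67 for Prpf4b. Among hnRNPs it was -0.59 for Hnrnpa2b1, -0.68 for Hnrnpab, -0.84 for Hnrnpu and -0.62 for Hnrnpul2. The median over all genes was -0.39.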

How the results depend on the processing

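With 13 alternatives, the number of members lower past 1.5-fold in KO leukaemia (17) became 1 with median-ratio size factors, 11 with the 50 highest genes left out of the library sum and 35 at a looser fold. Relative to the all-gene median (1), it became 2 among members that averaged at least 25 CPM, 2 after thinning and 11 at a looser fold. For the difference of the KO effects (19) it became 2, 12 and 36 with size factors, without the 50 highest genes and at a looser fold. For members higher in WT leukaemia than in WT c-Kit+ cells (5) it became 0 with size factors, 0 without the 50 highest genes, 8 with each cell weighted equally, 8 after thinning and 13 at a looser fold; members lower relative to the median (11) became 6 with equal weight and 17 at a looser fold. Members higher in dividing WT c-Kit+ cells (43) became 26 with thinned cells, among which dividing cells were called again. The causes were not tested. In c-Kit+ cells 0 members were lower past the fold in KO over WT in any of the 13. The results by gate were not run under the 13 but under 3 alternatives: gates of 2 distinct markers, doublets removed and thinned cells. Under these and in cells under the G2M threshold, members lower in late neutrophils of WT c-Kit+ cells numbered 47 to 49. Of 679 values of single genes under these alternatives, 15 had the other sign, over 9 results of which 0 had passed 1.5-fold. Only 410 of the values lay within the counting interval of the main setting. The other 269 include the differences of the KO effects, which have no such interval. Counting intervals thus do not cover the choice of processing. No paired analysis was possible because each group has 1 library. Depth limits the values of single members in the small gates, and 1 library per group leaves variation between animals unmeasured.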
